A study of Homo sapiens with 8 samples.

Results

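The genes described here are 10 genes of colon epithelial identity and differentiation: the transcription factors CDX1, CDX2 and HNF4A, the structural proteins VIL1 and KRT20, and the surface proteins CEACAM5, CEACAM6, MUC13, EPCAM and CDH17. They form a list of symbols drawn up with earlier results of these data known, and each symbol was matched to 1 of the 64253 Ensembl gene identifiers in the count tables. All 10 were among the 20305 genes with enough counts to be tested. RNA-seq was done on 8 libraries in 4 groups of 2. HCT-8, a line from a human colon cancer, is sensitive to 5-fluorouracil (5-FU), an antimetabolite used against colorectal tumours, and HCT-8/FU is a line resistant to it, both grown in unconditioned medium. In the remaining groups, the HCT-8 line was in conditioned medium (CM), which had been collected after 48 h from HCT-8 (the group CM of HCT-8) or from the resistant line (the group CM of HCT-8/FU). The 4 groups thus hold 1 sensitive line in 3 media and 1 resistant line in 1 medium, and the sources used here do not give how HCT-8/FU was selected. No source states that replicates were separate cultures, so p-values measure only the spread between these libraries, which may be technical.

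CDX2 and its relative CDX1 are homeobox factors that specify intestinal epithelium during development and keep up its genes in the adult gut. HNF4A is a nuclear receptor that acts with them on genes of the mature enterocyte, the absorptive cell of the gut lining. Villin, the product of VIL1, bundles actin in the microvilli of the brush border. Keratin 20 is an intermediate filament protein of differentiated intestinal cells, and pathologists use it with CDX2 to assign a tumour to the colon. CEACAM5 is the carcinoembryonic antigen followed in the serum of patients with colorectal cancer, and CEACAM6 is a closely related adhesion protein. MUC13 is a membrane mucin, EPCAM a cell adhesion protein of most simple epithelia, and CDH17 a cadherin of liver and intestine. In bulk RNA, more cells expressing a gene and more RNA per cell cannot be told apart.

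Counts on genes ranged from 5804124 in HCT-8/FU replicate 2 to 34881349 in HCT-8 replicate 2. In 3 libraries, HCT-8 replicate 1, HCT-8/FU replicate 2 and CM of HCT-8 replicate 1, more than 15% of the records were not aligned, at most 29.6%, against 3.58% to 4.43% in the others, and these 3 libraries were also the shallowest. The level of a gene against the mean of all libraries also moved with its GC content, with Spearman correlations over 19857 genes from -0.488 in HCT-8/FU replicate 1 to 0.534 in CM of HCT-8 replicate 2, described here without a test. Values corrected for GC content and length are therefore given where they change a call.

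Of the 10 genes, EPCAM had the highest level and CEACAM5 the lowest. Levels are given as CPM, the counts scaled to library size after TMM normalisation, and, between genes, as CPM per kb of exon, averaged over the 8 libraries. EPCAM stood at 176 CPM per kb, above 99.2% of the 13766 protein-coding genes tested. CDH17 at 42.1, MUC13 at 38.2, VIL1 at 35.2, CDX1 at 30.2 and CDX2 at 27.8 CPM per kb stood above 91.2% to 94.8% of those genes. HNF4A at 6.85 and KRT20 at 4.79 CPM per kb lay in the middle of the distribution, above 59.3% and 49.0% of genes. CEACAM6 reached 1.34 CPM per kb, above 23.7% of genes, and CEACAM5 0.0940 CPM per kb, above 3.52%. The labelled cell type was thus borne out only in part. CDX1, CDX2, VIL1, MUC13 and CDH17 stood high, as did EPCAM, which most simple epithelia share. HNF4A and KRT20 were intermediate, CEACAM6 was low and CEACAM5 was close to absent. The place of HNF4A depends on the scaling by length, which takes all its annotated exons, 10167 bases against 1775 for CDX1. In CPM, HNF4A had a mean of 69.7, above CDX1 at 53.6. Of the markers of other tissues, 9 of 10 blood and immune genes, 6 of 10 fibroblast and mesenchymal genes and 7 of 8 hepatocyte genes had a mean under 1 CPM. PTPRC and CD3E, which mark leukocytes, and COL1A2, a fibroblast collagen, had 0 counts in every library, and DCN (fibroblasts) had 5 counts and ALB (hepatocytes) 7 over all 8 libraries. VIM (mean 54.4 CPM), COL1A1 (11.4 CPM), FN1 (6.77 CPM) and PDGFRB (6.02 CPM) of the fibroblast list and SERPINA1 (33.2 CPM) of the hepatocyte list were detected.

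**Figure D1:**
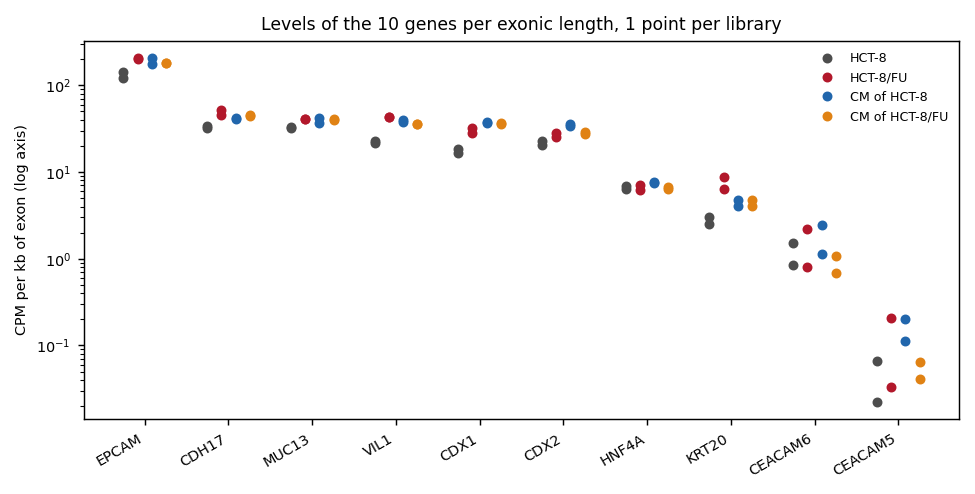
Level of each gene per exonic length in every library, in CPM per kb on a log axis, with 1 point per library coloured by group. EPCAM is highest, CDH17, MUC13, VIL1, CDX1 and CDX2 lie close together, and CEACAM5 is lowest, at a mean of 0.0940 CPM per kb.

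The promoters of 2 genes are shown because they hold a match to a motif of the factors described here, and those of the CEACAM pair because the sequences are related while the genes' levels per length differ. The sequences are RefSeq promoters on GRCh38.p14, 300 bases each, from 250 bases before the start site to 50 after it, read 5′ to 3′ on the gene's strand. Capitals mark a motif match and nothing is in capitals where there is none. Each motif was searched on both strands and its share taken over 34796 promoters of this length. The CDX motif TTTATG was in 10.6% of them. The HNF4 motif CAAAGTC was in 3.37%. The GATA factor motif GATAAG was in 6.36%.
KRT20, chr17:40885193-40885492, minus strand: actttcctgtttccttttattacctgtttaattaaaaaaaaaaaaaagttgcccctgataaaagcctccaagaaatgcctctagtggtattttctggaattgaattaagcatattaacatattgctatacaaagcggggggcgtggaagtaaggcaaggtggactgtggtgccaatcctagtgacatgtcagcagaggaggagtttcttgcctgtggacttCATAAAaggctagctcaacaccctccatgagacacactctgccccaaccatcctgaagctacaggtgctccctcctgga
MUC13, chr3:124934702-124935001, minus strand: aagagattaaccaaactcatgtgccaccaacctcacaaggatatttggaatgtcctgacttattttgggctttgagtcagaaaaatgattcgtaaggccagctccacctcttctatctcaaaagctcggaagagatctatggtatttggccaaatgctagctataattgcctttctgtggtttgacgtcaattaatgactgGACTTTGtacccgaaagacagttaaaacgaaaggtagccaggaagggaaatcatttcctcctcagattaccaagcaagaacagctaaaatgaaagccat
CEACAM5, chr19:41708376-41708675, plus strand: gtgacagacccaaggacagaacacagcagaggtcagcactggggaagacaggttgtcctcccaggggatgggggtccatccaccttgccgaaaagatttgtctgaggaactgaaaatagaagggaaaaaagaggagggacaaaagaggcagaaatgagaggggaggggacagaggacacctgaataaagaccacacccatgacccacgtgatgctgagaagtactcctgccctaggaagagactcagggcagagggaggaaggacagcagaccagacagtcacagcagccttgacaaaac
CEACAM6, chr19:41755280-41755579, plus strand: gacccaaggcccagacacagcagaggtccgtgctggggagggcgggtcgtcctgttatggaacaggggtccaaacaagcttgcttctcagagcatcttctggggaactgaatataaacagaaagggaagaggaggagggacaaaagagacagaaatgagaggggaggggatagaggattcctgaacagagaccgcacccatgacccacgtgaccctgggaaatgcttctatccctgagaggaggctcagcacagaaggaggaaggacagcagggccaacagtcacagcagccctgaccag
In KRT20, CATAAA, the CDX motif read on the other strand, begins 29 bases before the start site. In MUC13, GACTTTG, the HNF4 motif read on the other strand, begins 49 bases before it. The CEACAM5 and CEACAM6 promoters were identical in 236 of 311 alignment columns (75.9%) and held none of the motifs, and none was found in the RefSeq promoters of CDX2 and HNF4A. A match is only a match of letters, and 6 of the 10 genes had a promoter in the table and were searched.

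Across the 4 groups, HCT-8 in unconditioned medium had the lowest mean level of 8 of the 10 genes, the exceptions being HNF4A and CEACAM6. The share of all genes tested with HCT-8 lowest was not taken, so this count has no background beside it. The highest mean was in HCT-8/FU for VIL1, KRT20, MUC13, EPCAM and CDH17 and in CM of HCT-8 for CDX1, CDX2, HNF4A, CEACAM5 and CEACAM6. The 10 genes together took 0.0847% and 0.0878% of counts in HCT-8, and 0.124% to 0.143% in the other libraries.

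**Figure D2:**
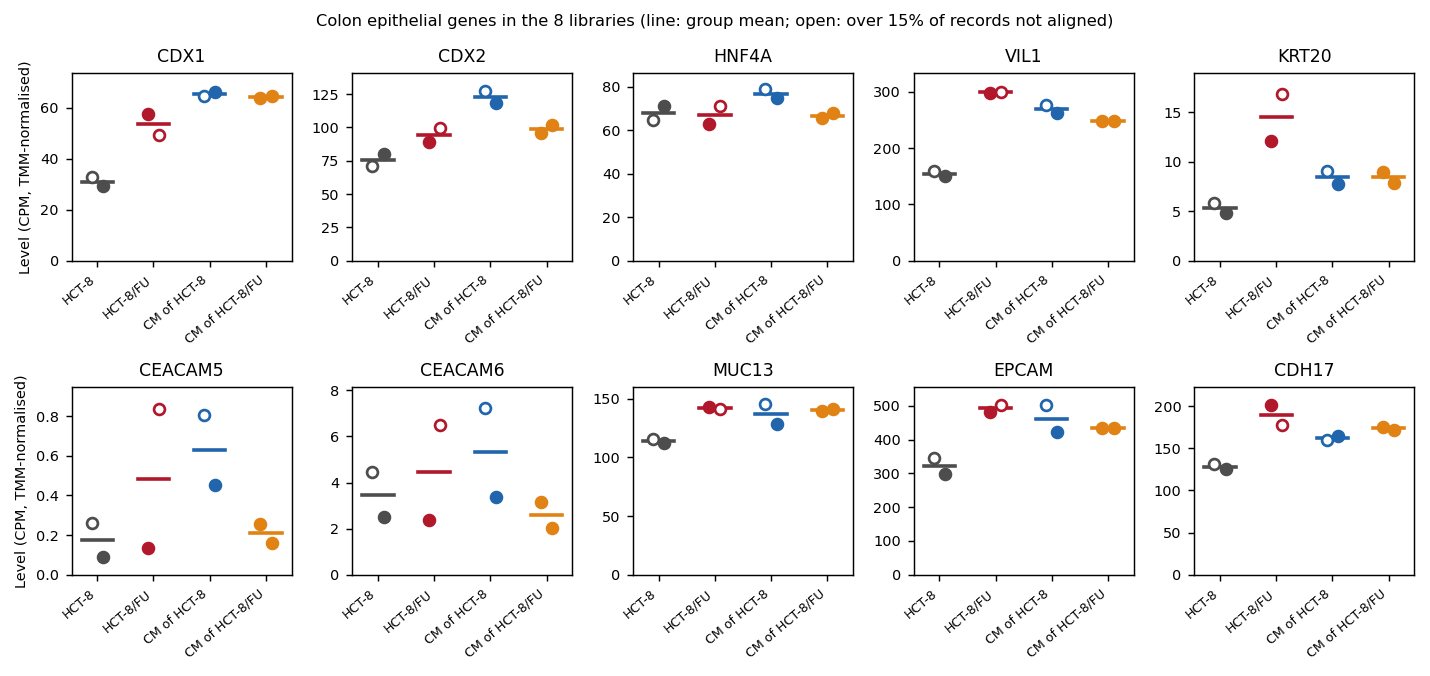
Level of the 10 genes in each library (TMM-normalised CPM, linear axes from 0), by group, with lines at the group means and open points where over 15% of records were not aligned (3 libraries). For CDX1, CDX2, VIL1, KRT20, MUC13, EPCAM and CDH17, both HCT-8 libraries lie below all 6 others. The share of all genes with this order was not taken.

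The first comparison, HCT-8/FU against HCT-8, asks how the resistant line differs from the sensitive one. CDX1, VIL1, KRT20 and EPCAM were higher in HCT-8/FU, by 0.61 (EPCAM) to 1.45 (KRT20) on the log2 scale, and none of the 10 was called lower. A gene was called at a false discovery rate of at most 0.05 over all genes tested and a log2 fold change of at least 0.58 in size. By this rule 4 of the 10 genes were called, all higher, where 21.3% of all genes tested were called and 13.2% were called higher. At the same false discovery rate without the fold threshold, 7 of 10 were higher and 36.7% of all genes passed in either direction. The median log2 fold change was 0.59 over the 10 genes and 0.01 over all genes. Both HCT-8/FU libraries lay above both HCT-8 libraries for 7 of 10 genes, where 32.7% of all genes did so. The second comparison, CM of HCT-8 against HCT-8, asks what conditioned medium of the same cells does. Here CDX1, CDX2, VIL1 and KRT20 were called, all higher, where 8.15% of genes were called and 3.86% were called higher. Without the fold threshold 7 passed, where 19.4% of all genes did. The median was 0.66 over the 10 genes and 0.01 over all genes, and for 9 of 10 genes both CM libraries lay above both of HCT-8, where 27.2% of all genes did so. The 9 include CEACAM5, at 7 and 12 counts against 2 and 3. Its level in CM of HCT-8 helped it pass the filter on low counts, so its order was not independent of that filter. These comparisons share the HCT-8 libraries, so a high or low level in HCT-8 enters both.

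The third comparison was between the media, with CM of HCT-8/FU set against the other CM group, and asks how the medium of resistant cells differs from that of sensitive cells. Here 0 of the 10 genes were called by edgeR's quasi-likelihood test, adjusted by Benjamini-Hochberg, where 9.25% of all genes were called. At an unadjusted p under 0.05, 2 of the 10 (CDX2 and HNF4A) passed, and DESeq2 on all 4 groups also called 0. Without the fold threshold 1 (CDX2) passed, where 19.7% of all genes did. The groups did not overlap for 6 of the 10 genes, 5 lower with CM of HCT-8/FU and 1 higher, where 34.5% of all genes were lower and 26.9% higher in this way. The 5 lower include CEACAM5, whose level in CM of HCT-8 helped it pass the filter on low counts. The median log2 fold change was -0.10 over the 10 genes and -0.06 over all genes. This comparison shares the CM of HCT-8 libraries with the second one. The difference between the first and the third comparison, which have no library in common, was called for 5 of 10 genes, CDX1, CDX2, VIL1, KRT20 and EPCAM, where 7.69% of all genes were called. Without the fold threshold 6 passed, where 11.6% of all genes did. After correction for GC content and length, 4 genes were called in HCT-8/FU, 2 (CDX1 and VIL1) in CM of HCT-8, 0 between the media and 5 for the difference, where 15.3%, 5.48%, 4.80% and 6.75% of all genes were called.

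**Figure D3:**
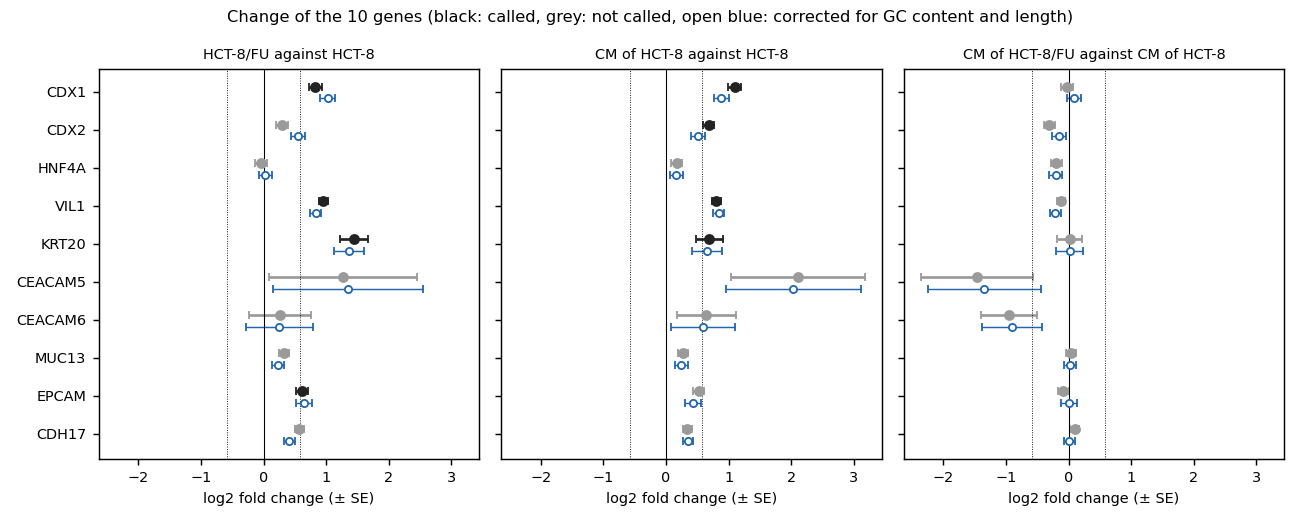
Log2 fold change of the 10 genes with its standard error in the 3 comparisons (filled, black where called and grey where not) and after correction for GC content and length (open blue), with dotted lines at the fold threshold of 0.58. CDX1, VIL1 and KRT20 lie right of the threshold in both comparisons with HCT-8. So does CEACAM5 (1.27 and 2.11), and CEACAM6 in CM of HCT-8 (0.64), with wide errors and not called. In the comparison of the media only CEACAM5 and CEACAM6, both with wide errors, lie beyond it.

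Among the transcription factors, CDX1 (ENSG00000113722, chr5:150166778-150184558, plus strand, GRCh38) stood at 32.9 and 29.2 CPM in the HCT-8 replicates, at 57.7 and 49.5 CPM in HCT-8/FU, at 64.8 and 66.1 CPM in CM of HCT-8 and at 63.8 and 64.8 CPM in CM of HCT-8/FU. Both HCT-8 libraries were below all others, HCT-8/FU came next, and the CM groups overlapped. The log2 fold change was 0.83 (SE 0.10) in HCT-8/FU and 1.10 (SE 0.10) in CM of HCT-8, with adjusted p-values of 1.48e-05 and 5.90e-06 by edgeR's quasi-likelihood test, adjusted by Benjamini-Hochberg. Between the media it was -0.03 (SE 0.09, adjusted p = 0.885), and the difference between the first comparison and that of the media was 0.85 (SE 0.14, adjusted p = 0.000962).

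CDX2 (ENSG00000165556, chr13:27960918-27969315, minus strand) stood at 71.1 and 80.2 CPM in HCT-8, at 88.8 and 99.5 CPM in HCT-8/FU, at 127 and 118 CPM in CM of HCT-8 and at 95.7 and 102 CPM in CM of HCT-8/FU. HCT-8 was lowest and CM of HCT-8 highest, without overlap with their neighbours, and CM of HCT-8/FU overlapped with HCT-8/FU. The log2 fold change was 0.68 (SE 0.09, adjusted p = 0.000114) in CM of HCT-8, and CDX2 was called. After correction for GC content and length it was 0.52 (adjusted p = 0.00856), under the fold threshold. In HCT-8/FU it was 0.29 (SE 0.09, adjusted p = 0.0200), not called. CDX2 was the only member to pass the false discovery rate between the media, at -0.31 (SE 0.09, adjusted p = 0.0209), again under the fold threshold, and with the correction this was -0.15 (adjusted p = 0.454). The difference between the first comparison and that of the media was 0.60 (SE 0.13, adjusted p = 0.00578). The level of CDX1 over that of CDX2, each per kb, came to 0.917 and 0.721 for HCT-8, 1.29 and 0.986 for HCT-8/FU, 1.01 and 1.11 for CM of HCT-8, and 1.32 and 1.26 for CM of HCT-8/FU. The ratio was thus lowest in the HCT-8 libraries. CDX1 and CDX2 have the highest GC contents of the 10 genes, 62.8% and 59.7%.

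HNF4A (ENSG00000101076, chr20:44355699-44432845, plus strand) stood at 64.8 and 71.0 CPM in HCT-8, at 62.9 and 71.4 CPM in HCT-8/FU, at 78.8 and 75.0 CPM in CM of HCT-8 and at 65.6 and 68.0 CPM in CM of HCT-8/FU. CM of HCT-8 lay above the rest, and the other groups overlapped. Its group means spanned 0.20 on the log2(CPM + 1) scale, the narrowest range of the 10 genes. HNF4A was not called in any comparison, with log2 fold changes of -0.04 (SE 0.09) in HCT-8/FU, which was 0.049 with another TMM reference library, 0.17 (SE 0.09) in CM of HCT-8 and -0.20 (SE 0.09) between the media. Of the 3 factors, CDX1 was thus called in both comparisons with HCT-8, CDX2 in 1 and HNF4A in none.

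Of the structural proteins, VIL1 (ENSG00000127831, chr2:218419121-218453295, plus strand) stood at 159 and 150.1 CPM in HCT-8, at 299 and 299.9 CPM in HCT-8/FU, at 276 and 263 CPM in CM of HCT-8 and at 247 and 248 CPM in CM of HCT-8/FU. None of the 4 groups overlapped, and all 6 other libraries were above HCT-8. The log2 fold change was 0.96 (SE 0.07, adjusted p = 1.18e-07) in HCT-8/FU and 0.80 (SE 0.07, adjusted p = 3.80e-06) in CM of HCT-8. Between the media it was -0.12 (SE 0.07, adjusted p = 0.253), and the difference between the first comparison and that of the media was 1.08 (SE 0.10, adjusted p = 6.83e-06).
VIL1 shares 3045 bases of exon, 44.2% of its exonic length, with USP37, a deubiquitinase gene on the opposite strand. The sources used here do not give whether counting used strand, so how reads in the shared stretch were counted is not known. USP37 stood at 34.4 and 34.9 CPM in HCT-8, at 85.3 and 94.3 CPM in HCT-8/FU, at 46.7 and 47.1 CPM in CM of HCT-8 and at 72.1 and 68.7 CPM in CM of HCT-8/FU. Its log2 fold change was 1.36 (SE 0.09) in HCT-8/FU and 0.58 (SE 0.09) between the media, both called. With CM of HCT-8 it was 0.44 (SE 0.09), not called. After correction for GC content and length, the change between the media was 0.03 and no longer called. The change with CM of HCT-8 was then 0.70 and called, and that of the resistant line was 0.80 and still called. The part of USP37 in the VIL1 counts was not tested.

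KRT20 (ENSG00000171431, chr17:40875889-40885242, minus strand) had the widest range of group means, 1.29 on the log2(CPM + 1) scale. It stood at 5.79 and 4.79 CPM in HCT-8, at 12.1 and 16.9 CPM in HCT-8/FU, at 9.09 and 7.76 CPM in CM of HCT-8 and at 9.01 and 7.82 CPM in CM of HCT-8/FU. Any part of the CDX motif match in the KRT20 promoter in these levels was not tested. HCT-8 was lowest, HCT-8/FU highest, and the CM groups overlapped between them. The log2 fold change was 1.45 (SE 0.22, adjusted p = 8.29e-05) in HCT-8/FU, the largest called change among the 10 genes. In CM of HCT-8 it was 0.69 (SE 0.22, adjusted p = 0.0390), a call that was lost with the GC and length correction (adjusted p = 0.0993) and when any of HCT-8 replicate 1 (log2 fold change 0.79), HCT-8 replicate 2 (0.45), CM of HCT-8 replicate 1 (0.60) or either CM of HCT-8/FU library (0.69 each) was left out. Between the media it was 0.02 (SE 0.20, adjusted p = 0.963), and the difference between the first comparison and that of the media was 1.43 (SE 0.30, adjusted p = 0.00532). By the root mean square difference of centred log2(CPM + 1) over the 8 libraries, the closest of 10872 genes to KRT20 were SKP2 at 0.113, GRAMD1B at 0.115 and MAD2L1 at 0.133.

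The carcinoembryonic antigen genes lie side by side on chromosome 19. CEACAM5 (ENSG00000105388, chr19:41708585-41730433, plus strand) was close to absent. Its counts were 2 and 3 for HCT-8, 4 and 5 for HCT-8/FU, 7 and 12 for CM of HCT-8, and 8 and 5 for CM of HCT-8/FU. These are 0.0887 to 0.836 CPM, and no difference was detectable at this depth, with adjusted p-values of 0.199 to 0.452 over the 3 comparisons by edgeR's quasi-likelihood test, adjusted by Benjamini-Hochberg. CEACAM6 (ENSG00000086548, chr19:41750977-41772211, plus strand) stood at 4.48 and 2.48 CPM in HCT-8, at 2.39 and 6.52 CPM in HCT-8/FU, at 7.25 and 3.39 CPM in CM of HCT-8 and at 3.14 and 2.01 CPM in CM of HCT-8/FU. In the 3 groups that hold a library with over 15% of records not aligned, that library was the higher one for CEACAM6, and so it was for VIL1, KRT20, CEACAM5 and EPCAM, 5 of the 10 genes in all. The share of all genes with this order was not taken, and the part of this in the values was not tested. CEACAM6 was not called in any comparison, at 0.26 (SE 0.50) in HCT-8/FU, 0.64 (SE 0.48) in CM of HCT-8 and -0.96 (SE 0.45, adjusted p = 0.161) between the media. Without CM of HCT-8 replicate 2 the last became -1.48 (adjusted p = 0.0183). Of stretches of 100 exonic bases, 1.48% in CEACAM5 and 1.79% in CEACAM6 occur also in another gene, and none of those of CEACAM5 occurs in CEACAM6.

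Among the other surface proteins, EPCAM (ENSG00000119888, chr2:47345158-47387601, plus strand) stood at 347 and 298 CPM in HCT-8, at 482 and 502 CPM in HCT-8/FU, at 501 and 422 CPM in CM of HCT-8 and at 434 and 435 CPM in CM of HCT-8/FU. Both HCT-8 libraries were below all others, which overlapped in part. The log2 fold change was 0.61 (SE 0.09, adjusted p = 6.29e-05) in HCT-8/FU and 0.52 (SE 0.09, adjusted p = 0.000848) in CM of HCT-8, where it stayed under the fold threshold. Without HCT-8 replicate 2 the first became 0.48 and was no longer called, and the second passed as a call when HCT-8 replicate 1 (0.63) was left out, and likewise replicate 2 of CM of HCT-8 (0.64). Between the media it was -0.09 (SE 0.09, adjusted p = 0.558), and the difference between the first comparison and that of the media was 0.70 (SE 0.13, adjusted p = 0.00197).

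CDH17 (ENSG00000079112, chr8:94127162-94217303, minus strand) stood at 131 and 126 CPM in HCT-8, at 201 and 178 CPM in HCT-8/FU, at 160.1 and 164 CPM in CM of HCT-8 and at 175 and 172 CPM in CM of HCT-8/FU. None of the 4 groups overlapped. In HCT-8/FU the log2 fold change was 0.57 (SE 0.08, adjusted p = 3.40e-05), just under the fold threshold, and in CM of HCT-8 it was 0.34 (SE 0.08, adjusted p = 0.00622). Between the media it was 0.10 (SE 0.08, adjusted p = 0.425). MUC13 (ENSG00000173702, chr3:124905442-124953819, minus strand) stood at 116 and 112 CPM in HCT-8, at 143 and 141 CPM in HCT-8/FU, at 146 and 129 CPM in CM of HCT-8 and at 139.8 and 142 CPM in CM of HCT-8/FU. Any part of the HNF4 motif match in the MUC13 promoter in these levels was not tested. HCT-8 was again lowest and the other groups overlapped. The log2 fold change was 0.32 (SE 0.08, adjusted p = 0.00464) in HCT-8/FU and 0.27 (SE 0.08, adjusted p = 0.0278) in CM of HCT-8, under the fold threshold in both, and 0.04 (SE 0.08, adjusted p = 0.777) between the media. Among the 10 genes, MUC13 and CDH17 had the most similar pattern over the 8 libraries, with a root mean square difference of 0.111.

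The groups were also compared between single libraries of the same alignment class, on the log2(CPM + 1) scale. In HCT-8/FU against HCT-8, CDX1 differed by 0.96 between the libraries under 15% not aligned and by 0.57 between those over it, VIL1 by 0.99 and 0.91, KRT20 by 1.18 and 1.40, EPCAM by 0.69 and 0.53, and CDX2 by 0.14 and 0.48. In CM of HCT-8 against HCT-8, the same values were 1.15 and 0.96 for CDX1, 0.56 and 0.83 for CDX2, 0.80 and 0.79 for VIL1, and 0.60 and 0.57 for KRT20. The groups did not overlap for these genes, so the same direction in both classes was fixed in advance. In HCT-8/FU against HCT-8, the groups overlapped for HNF4A, CEACAM5 and CEACAM6. There HNF4A differed by -0.17 and 0.14, CEACAM5 by 0.06 and 0.54, and CEACAM6 by -0.04 and 0.46. The direction for HNF4A and CEACAM6 thus differed between the classes.

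The rest of the intestinal programme was read from 5 lists of related genes. The counts of calls below stand beside these shares of all genes tested. In HCT-8/FU 21.3% were called (13.2% higher), in CM of HCT-8 8.15% (3.86% higher) and between the media 9.25%. Of 34 genes of absorptive enterocytes and the brush border, 20 had a mean under 1 CPM. SI (sucrase-isomaltase), FABP2 (fatty acid binding), CA4 (carbonic anhydrase), GUCA2B (uroguanylin), MS4A12 and APOB had 0 counts in every library, while EZR, which links actin to the membrane, had a mean of 729.9 CPM, USH1C 104 CPM and ESPN, an actin bundler, 76.9 CPM. Scaffold genes of the brush border were thus present beside VIL1, with MYO1A (10.6 CPM) and CDHR2 (8.35 CPM) at lower levels. Genes of digestion and absorption were mixed. Several were not detected, while DPP4 (74.4 CPM), ALPI (44.1 CPM), CA2 (13.4 CPM) and SLC5A1 (8.04 CPM) were. In HCT-8/FU, of the 14 tested, DPP4, a membrane peptidase, was called at 1.13 and EPS8, an actin-capping protein, at 0.73, and SLC5A1, the sodium-glucose transporter, at -1.18 and CDHR5, a microvillus cadherin, at -0.87 on the log2 scale. With CM of HCT-8, SLC5A1 (-0.80) and PLS1 (-0.65), another actin bundler, were called, and between the media PLS1 (0.69) and EPS8 (0.64). The median over the 14 was 0.14, 0.09 and -0.10 in these comparisons. With the GC and length correction, EPS8 in HCT-8/FU (0.32) and PLS1 in CM of HCT-8 (-0.42) were no longer called. The same held for PLS1 (0.15) and EPS8 (0.26) between the media. VIL1 and DPP4 were called higher in HCT-8/FU than in HCT-8 with and without the correction, and SLC5A1 and CDHR5 lower.

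Of 21 other intestinal transcription factors, 20 were tested, and KLF5 (mean 272 CPM), SOX9 (321 CPM), FOXA1 (124 CPM) and GATA6 (106 CPM) were well detected, whereas GATA4, a factor of the small intestine, had 0 counts. In HCT-8/FU, EHF (2.58), an epithelial ETS factor, HNF4G (2.14), the relative of HNF4A, and NR5A2 (0.65) were called higher, and FOXA3 (-1.24) and ISX (-0.73), a homeobox factor of the intestine, lower. With CM of HCT-8 the cells had EHF (1.45) and SOX9 (0.60) among 3 called higher, and NR5A2 (-0.71) and FOXA3 (-0.66) lower. Between the media, HNF4G (1.21), NR5A2 (1.09) and EHF (0.73) were called, all higher, while with the GC and length correction EHF was no longer called (0.40, adjusted p = 0.155) and PPARG, a nuclear receptor, was called lower (-0.76, adjusted p = 0.00310). The list medians were 0.00, 0.21 and -0.19. HNF4G was thus called in 2 comparisons in which HNF4A was not.

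Of 20 genes of goblet and other secretory cells, 13 were tested, and ATOH1, the factor that opens the secretory lineage, NEUROG3, NEUROD1, CLCA1 and DEFA5 had 0 counts. In HCT-8/FU, the mucin genes MUC4 (-2.06), MUC2 (-1.58) and MUC5B (-0.99) were among 5 called lower, with REG4 (1.10) and SPINK4 (1.09), secreted proteins of goblet and related cells, called higher. MUC4 (mean 1.24 CPM), SPINK4 (1.77 CPM) and MUC2 (4.46 CPM) were low beside MUC5B (271 CPM). The HCT-8/FU libraries had only 18 and 2 counts of MUC4 and 64 and 6 of MUC2. With CM of HCT-8, REG4 (1.36), MUC5AC (0.86) and TFF1 (0.69), a trefoil peptide, were called higher and none lower, and between the media edgeR called 0 of 13, with 3 at an unadjusted p under 0.05 and 0 called by DESeq2. With the GC and length correction, AGR2 (-0.81, adjusted p = 0.000762) and MUC5AC (-0.60, adjusted p = 0.00988) were called lower there. The list medians were -0.20, 0.50 and -0.32.

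Of 22 genes of the epithelial surface and keratins, 20 were tested. KRT8 had a mean of 5049 CPM and KRT18 2215 CPM, and CDH1, the E-cadherin gene, 947 CPM. In HCT-8/FU, the desmosome genes DSC2 (1.05), DSP (0.94) and DSG2 (0.91) were among 5 called higher, and the claudin genes CLDN7 (-0.96) and CLDN3 (-0.70) were called lower. With the GC and length correction, DSC2 and DSG2 were no longer called. With CM of HCT-8, CEACAM1 (0.69), CLDN2 (0.67) and ST14 (0.62), a membrane protease, were called, and between the media DSC2 (0.68) and DSG2 (0.67), all higher. The list medians were -0.03, 0.13 and -0.17.

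Of 10 genes of intestinal stem and progenitor cells, 7 were tested, and OLFM4 had 0 counts. In HCT-8/FU, LGR5 (1.75), a Wnt pathway receptor of crypt base stem cells, CD44 (1.06) and ASCL2 (0.86), a stem cell factor, were among 5 called higher, and MSI1 (-0.61) was called lower. With CM of HCT-8, ASCL2 (1.23), LGR5 (0.88) and AXIN2 (0.86), a Wnt target, were among 4 called, all higher, and between the media edgeR called 0 of 7, with 3 at an unadjusted p under 0.05 and 0 called by DESeq2. The list medians were 0.85, 0.83 and 0.00. LGR5, ASCL2, CD44 and AXIN2 were thus called higher in both comparisons with HCT-8.

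**Figure D4:**
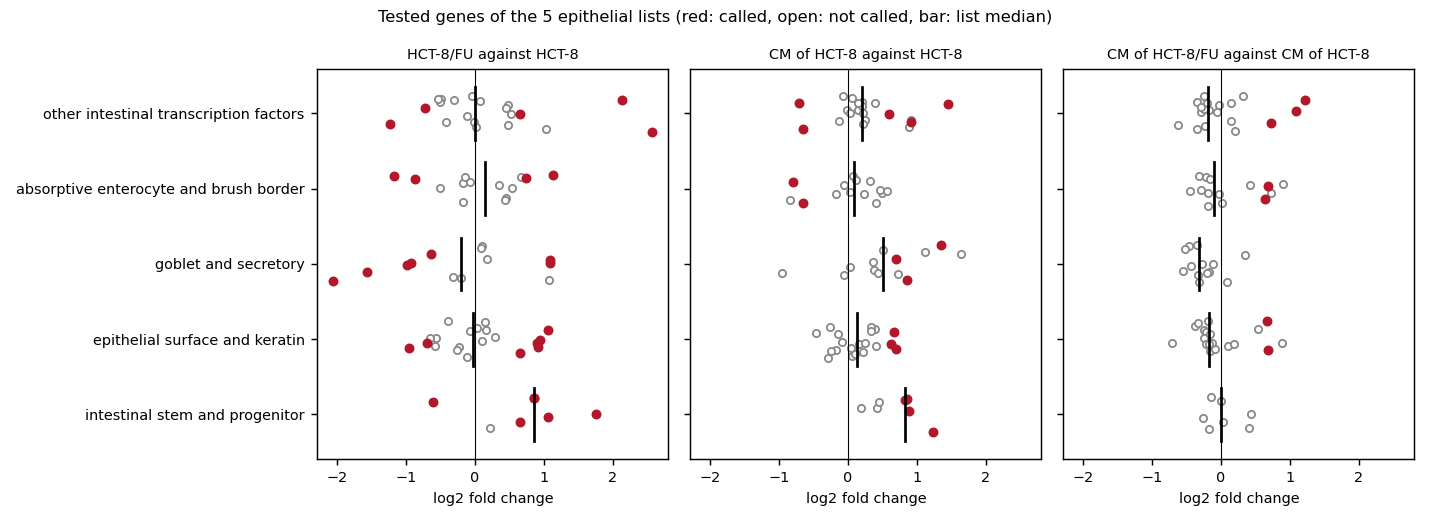
Log2 fold change of every tested gene in 5 lists of intestinal genes in the 3 comparisons (1 point per gene, red where called, bars at the list medians, vertical scatter within a list without meaning). All 5 lists hold genes on both sides of 0 in the first comparison, and the stem and progenitor list has medians of 0.85 and 0.83 in the comparisons with HCT-8.

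The lists of other cell types were summed for each library. The 10 fibroblast and mesenchymal genes came to 93.3 to 93.5 CPM for HCT-8, 66.0 to 70.7 CPM for HCT-8/FU, 79.4 to 81.7 CPM for CM of HCT-8 and 71.2 to 73.5 CPM for CM of HCT-8/FU, most of it VIM (mean 54.4 CPM). VIM was called lower in HCT-8/FU (-0.81) and FN1 higher (1.302), and PDGFRB was called higher in CM of HCT-8 (0.82). The 10 blood and immune genes came to 1.71 to 3.99 CPM, with none of the 4 tested called by edgeR or DESeq2 (1 had an unadjusted p under 0.05, in CM of HCT-8), and the 8 hepatocyte genes to 23.4 to 41.4 CPM, most of it SERPINA1 (mean 33.2 CPM), which was called lower in HCT-8/FU (-0.64). With the GC and length correction, 20 of the 26 calls that the naming rule picked from all lists were kept in HCT-8/FU, 11 of 17 in CM of HCT-8 and 2 of 7 (HNF4G and NR5A2) between the media. The calls lost were NR5A2, EPS8, DSC2, DSG2, MSI1 and SERPINA1 in HCT-8/FU and SOX9, NR5A2, PLS1, CLDN2, ST14 and PDGFRB in CM of HCT-8. Called only with the correction were 3 genes in HCT-8/FU, among them PPARG (-1.09) and MYO1A (0.68), a myosin of the brush border, then DPP4 (0.61) and CA2 (0.60), a carbonic anhydrase, in CM of HCT-8, and PPARG, AGR2 and MUC5AC between the media.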

How the data were processed

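RNA-seq was done on 8 libraries of colon cancer cells. Per the labels, the authors mapped reads to GRCh38 by HISAT2, used SAMtools (1.18) and HTSeq (0.11.2), and deposited the raw count of each gene for every library. The sources used here do not give whether counting used strand. Of a library's records, 29.7% to 40.8% fell on genes, and lines naming no gene, of which no feature took 33.7% to 49.6%, were left out. The authors also deposited DESeq2 (1.30.0) tables of their own comparisons, with fold changes and p-values, which were not used. The sample labels name Ham's F12 as the growth medium and the study's methods name RPMI.

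Groups were taken from the sample titles. The counts were analysed with edgeR (4.0.16) in R (4.3.3), with TMM normalisation (HCT-8 replicate 2 as reference), filterByExpr and quasi-likelihood tests on the means of the 4 groups. Calls required a Benjamini-Hochberg adjusted p of at most 0.05 over 20305 genes and a log2 fold change of at least 0.58 in size. GENCODE on the same build gave each gene's position, exonic length and GC content. Alternatives covered normalisation, filters, DESeq2 (1.42.0), GC content and length, alignment and each library left out. The fits were tested on simulated data. Replicates of each group differed by more than sampling noise.

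The 10 genes and the lists were chosen with earlier results of these data known. From each list and comparison, the called genes averaging 1 CPM or more were named, at most 3 in each direction by size of change. Genes named for their level alone were chosen after their values were seen. A gene that the rule picked is not reported here.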

Additional observations from a re-analysis of the deposited data

Results flagged for a closer look

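For 6 genes the change from HCT-8 to HCT-8/FU was not the same as the change from CM of HCT-8 to the medium of the resistant line, by a test of the difference itself over all genes (edgeR's quasi-likelihood test, adjusted by Benjamini-Hochberg, 2 libraries a group). The difference on the log2 scale was 0.85 for CDX1 (adjusted p = 0.000962), 0.60 for CDX2 (adjusted p = 0.00578), 1.08 for VIL1 (adjusted p = 6.83e-06), 1.43 for KRT20 (adjusted p = 0.00532), 0.70 for EPCAM (adjusted p = 0.00197) and 0.48 for CDH17 (adjusted p = 0.00976). The difference for CDH17 was under the fold threshold. For all 6, HCT-8/FU was above HCT-8 in each library, with values between the media from -0.31 for CDX2 to 0.10 for CDH17. The first comparison sets 2 lines side by side in unconditioned medium, and the other sets both CM side by side on the HCT-8 line. Outlying libraries could not be looked for in groups of 2.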

How the results depend on the processing

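The counts of the 10 genes called were 4 for HCT-8/FU, 0 between the media, 4 for CM of HCT-8 and 5 for the difference between the first comparison and that of the media. The calls of CDX1 and VIL1 held in both comparisons with HCT-8 under all 20 alternatives that kept the fold threshold. Without that threshold, 7 passed in HCT-8/FU, 1 between the media and 7 in CM of HCT-8. With no filter on low counts, 1 (CEACAM6) was called between the media. With the GC and length correction, with or without the replicate block, 2 were called in CM of HCT-8. Leaving out 1 library in turn, the counts ranged from 3 to 5 in HCT-8/FU, 0 to 1 between the media, 3 to 5 in CM of HCT-8 and 3 to 5 for the difference, with 3 when HCT-8 replicate 2, or replicate 1 of CM of HCT-8, was absent. CDH17 was called in HCT-8/FU under 8 alternatives that kept the fold threshold, at 0.58 to 0.67, and CDX2 lost the call of the difference under 9, at 0.40 to 0.58. KRT20 lost its call in CM of HCT-8 under 11. With only the 5 libraries under 15% not aligned, a choice made after seeing the data and with 1 degree of freedom, 5, 0, 3 and 5 were called.

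The replicate numbers did not pair the libraries: deviations from the group means correlated at -0.0862 between the lines, 0.132 between HCT-8 and CM of HCT-8 and -0.0279 between the CM groups. With the replicate number as a block, 4, 0, 4 and 5 genes were called.

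Directions reversed only where the log2 fold change was not called. HNF4A in HCT-8/FU became 0.049 with another TMM reference, 0.031 with the GC correction and 0.038 with the block added, and its difference became -0.012 with the 5 libraries. CEACAM6 in HCT-8/FU became -0.059 with the 5 libraries. Between the media, CDX1 became 0.0115 with DESeq2 size factors, 0.0114 with DESeq2 on 4 groups, 0.059 with another TMM reference, 0.062 with edgeR and 0.0204 with DESeq2 on these groups alone, 0.0022 with no filter, 0.083 with the GC correction and 0.0800 with the block added. EPCAM became 0.0012 with another TMM reference, 0.0036 with edgeR on these groups alone, 0.0105 with the GC correction and 0.017 with the block added, 0.0051 with a term for alignment and 0.041 with the 5 libraries. Leaving out 1 library in turn, values in HCT-8/FU ranged from -0.12 to 0.055 for HNF4A, from -0.013 to 2.59 for CEACAM5 and from -0.42 to 1.02 for CEACAM6. Between the media they ranged from -0.039 to 0.034 for CDX1, from -0.11 to 0.12 for KRT20, from -0.048 to 0.13 for MUC13 and from -0.20 to 0.042 for EPCAM. The cause was not tested.

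Over all genes, 4325 were called in HCT-8/FU and 7442 without the fold threshold. Between the media 1878 were called, 4005 without the fold threshold, 954 with the GC correction and 897 with the block added. In CM of HCT-8 1655 were called, 3949 without the fold threshold, 1090 with DESeq2 on these groups alone, 1089 with the GC correction and 1033 with the block added. For the difference 1561 were called, and 2350 without the fold threshold. Depth limits CEACAM5, at 2 to 12 counts a library.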
